A study of Homo sapiens with 16 samples.

Results

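Desmosomes are junctions that couple the keratin filaments of neighbouring epithelial cells. Their adhesive part is built from the desmogleins (DSG) and desmocollins (DSC), which are cadherins that bridge the gap between cells. Inside the cell, plakoglobin (JUP) and the plakophilins (PKP) bind the cadherin tails, and desmoplakin (DSP) ties the plaque to keratin. PERP is a tetraspan membrane protein that stratified epithelia need for stable desmosomes. In the epidermis DSG3 and DSC3 are known for the basal layers, DSG1 and DSC1 for the upper layers, and DSG2, DSC2 and PKP2 are the forms shared with simple epithelia. YAP is a transcriptional co-activator that binds DNA through the TEAD factors.

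The desmosome genes described here were 10 rows of the gene count table, taken by symbol, of 26229 rows in all: DSP, DSG2, DSG3, DSC2, DSC3, JUP, PKP1, PKP2, PKP3 and PERP. The rows were not picked by a measured value, but the genes were chosen with earlier results of these data known. RNA-seq was performed on 16 libraries of 2 human cell lines grown in DMEM with 10% FCS, A431, which comes from an epidermoid carcinoma, and HaCaT, an immortalised keratinocyte line. In each line there was 1 library of cells given a control siRNA (siCTRL), 3 of cells given siRNA against YAP1 (siYAP), 1 of cells given an empty expression vector (EV) and 3 of cells given the YAP1 S5A vector, a constitutively active YAP1 mutant (YAP5SA). The siRNA cultures carried no vector and the vector cultures received no siRNA. The siRNAs were transfected 2 times, 24 h apart, and RNA was taken 48 h after the second transfection. As both lines are single established lines and each control is 1 library, the control groups have no spread of their own, and p-values rest on the spread within the 4 treated triplicates.

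Levels are given as counts per 1000000 assigned read pairs (CPM) after TMM scaling, a correction for differences in library composition. Changes are log2 fold changes with their standard error (SE) from edgeR's quasi-likelihood test over 14673 genes. A gene was called when its false discovery rate (FDR, Benjamini-Hochberg) was below 0.05 and its mean log2 CPM was above 1. All 10 genes passed the filter on low counts, with at least 720 counts in every library. In such bulk libraries, fewer cells of one kind and less RNA per cell cannot be told apart.

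The libraries held between 18115624 and 46791673 assigned read pairs. YAP1 itself fell from 94.3 CPM to between 5.04 and 7.0 CPM with siYAP in A431 and from 254 CPM to between 21.6 and 23.2 CPM in HaCaT. In YAP5SA replicates 1, 2 and 3 it stood at 1495, 3245.5 and 2939.6 CPM in A431. In HaCaT it stood at 7549.5, 22254.7 and 10068.7 CPM. The YAP1 level reached thus differed between the lines and between replicates, and its part in the differences described below was not tested. EGFR, which is known to be amplified in A431, was lower in every HaCaT library (298 to 557 CPM) than in every A431 library (750.0 to 1358 CPM). All 8 keratinocyte markers were present in every library, with a summed level of 2331 to 7999 CPM. Of the markers of other cells, the 4 of melanocytes summed to at most 3.78 CPM, with TYR at 0 throughout, the 8 of fibroblasts to at most 27.9 CPM and the 3 of endothelium to at most 59.2 CPM, most of it CDH5 (51.8 CPM) in HaCaT siCTRL. The cultures of the siRNA and vector arms differed from each other also beside YAP: in HaCaT, KRT6A was at 58.9 to 93.5 CPM in the 4 siRNA-arm libraries and at 979 to 1645 CPM in the 4 vector-arm libraries, while CDH5 was at 12.1 to 51.8 CPM and at 0.127 to 0.995 CPM. Within the triplicates, the desmosome genes varied with a median coefficient of variation of 8.77 to 14.7%, against 8.36 to 14.5% for the 12240 genes of mean log2 CPM above 1. The library farthest from the other two of its group was replicate 1 for 8 of the 10 genes in A431 siYAP and for 8 in A431 YAP5SA, and replicate 2 for 6 in HaCaT siYAP and for 5 in HaCaT YAP5SA. The widest spread was that of DSG2 in HaCaT YAP5SA, at 348 CPM in replicate 2 and 676 and 544 CPM in the other two.

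All 10 desmosome genes were expressed in both lines, and their levels can be ranked once divided by transcript length (CPM per kb, GENCODE transcript with the longest coding sequence). In A431, PERP (median 112, range 88.0 to 141 CPM per kb, 8 libraries) and DSG2 (109, 90.7 to 123) were the most abundant and did not differ beyond their ranges. DSC3 followed at 59.4 (54.7 to 72.2), below every DSG2 value. JUP (45.7), DSP (40.7), PKP1 (40.2) and DSG3 (34.9) formed a group with overlapping ranges, of which JUP and DSG3 reached into the range of DSC3, and PKP2 (20.4), PKP3 (20.1) and DSC2 (10.7) were lowest. In HaCaT the order by median was PERP (154 CPM per kb), DSG2 (114), DSC3 (85.0), DSG3 (84.4), DSP (83.8), PKP1 (69.4), JUP (68.0), DSC2 (23.8), PKP2 (23.4) and PKP3 (22.7), and every neighbouring pair overlapped except JUP (45.0 to 86.5) and DSC2 (16.6 to 28.9). DSC2 was divided by 12.3 kb, of which 9175 bases are 3' UTR, so its level per length depends on that annotated transcript.

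**Figure D1:**
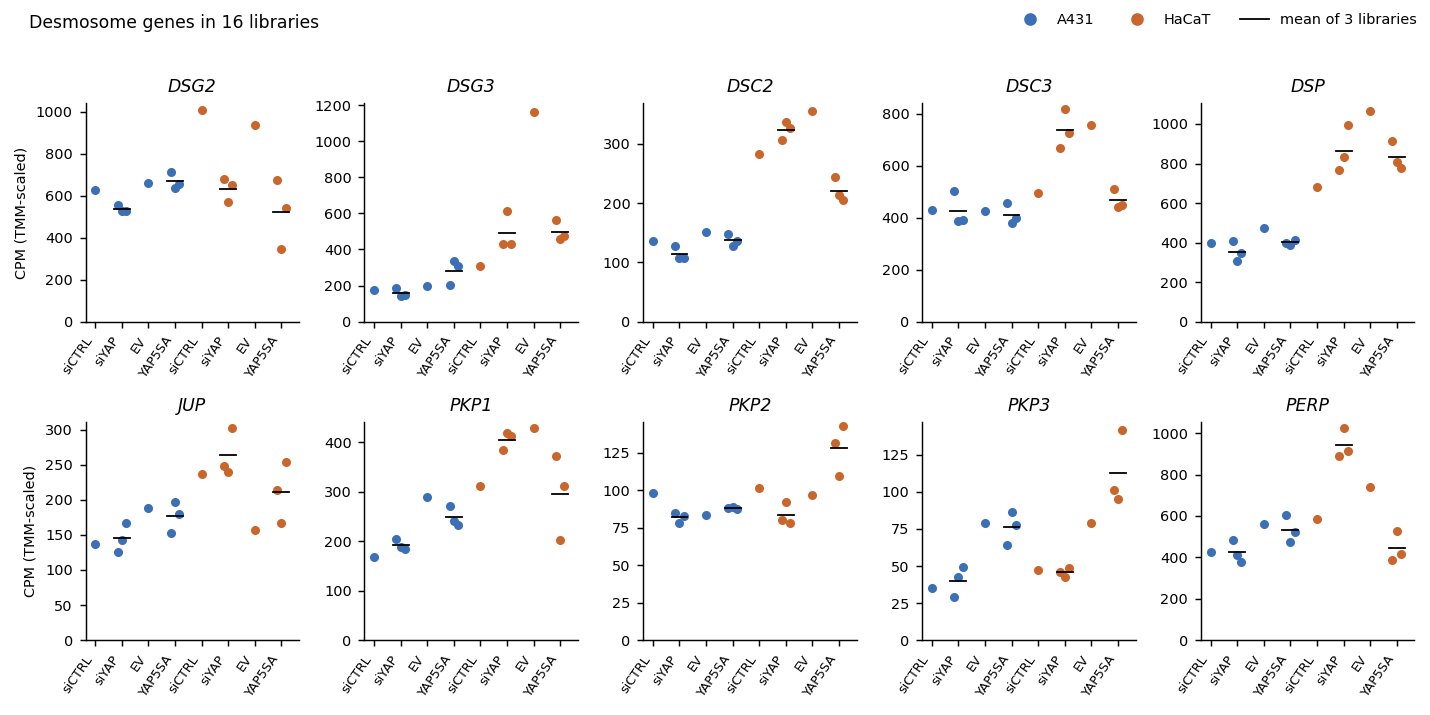
Level of each of the 10 desmosome genes (vertical axis, TMM-scaled CPM from 0) in every library of the 8 groups (horizontal axis), A431 in blue and HaCaT in orange. Each point is 1 library and each black line the mean of 3 libraries. DSP and DSC2 are higher in all 8 HaCaT libraries than in all 8 A431 libraries, and the single HaCaT EV library has the highest DSG3 level, 1159.9 CPM.

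The upstream sequence of the desmosome genes was searched for the letters bound by TEAD (GGAATG) and by AP-1 (TGANTCA), on both strands. RefSeq promoter windows, 250 bases before to 50 after a start site, were at hand for 8 of the 10 genes (10 windows), and not for PKP2 and PKP3. None of the 10 windows held GGAATG, which 14.0% of 35116 windows held. TGANTCA was in 1 of the 10 windows and in 7.7% of all windows. The holder was PERP, whose window (GRCh38.p14, chr6:138107370-138107669, minus strand) is shown because it is the single window with a match, with the 7 matching letters, which start 101 bases before the start site, in capitals.
PERP: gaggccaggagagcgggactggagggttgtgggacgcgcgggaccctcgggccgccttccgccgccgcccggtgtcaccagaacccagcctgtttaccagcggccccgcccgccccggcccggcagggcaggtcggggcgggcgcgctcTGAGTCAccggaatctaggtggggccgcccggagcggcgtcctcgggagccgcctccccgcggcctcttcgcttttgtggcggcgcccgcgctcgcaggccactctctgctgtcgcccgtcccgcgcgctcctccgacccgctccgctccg
Such matches describe the letters and do not show binding.

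Because 2 overlapping 7-base strings, TTCTTAA and CTTCTTA, had been singled out in an earlier analysis of these libraries, which was not repeated here, they were looked for in the 3' UTRs. Of the 10 desmosome genes, 4 held such a string in the GENCODE 3' UTR (DSP, DSG2, DSG3 and DSC2), as did 26.6% of 12111 tested genes with a 3' UTR of at least 50 bases. The share of all genes was not matched for 3' UTR length, which ran from 839 bases in DSP to 9175 in DSC2 among these 4. As the strings came from these same libraries, the siYAP values of the 4 genes, given further on, are no independent support for them. The sites are shown with 9 bases on each side, the string in capitals. DSC2 also holds TTCTTAA from base 2282, overlapping the string shown, and this second match is not marked.
DSP, base 174 of the UTR: gctttttatCTTCTTAgctcatctt
DSG2, base 1064: ataattttaCTTCTTAtagtaatag
DSG3, base 273: tcctaaacaTTCTTAAgcttctatt
DSC2, base 2281: gaacatctgCTTCTTAaaatgggca

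The desmosome genes were higher in HaCaT than in A431. Averaged over the 4 treatments, all 10 had a positive log2 fold change and 8 were called higher, while 60.6% of all tested genes were called in this comparison and 27.5% were called higher. The median log2 fold change was 0.47 for the 10 genes and -0.06 for all genes. DSG3, DSC2 and DSP had the largest differences.

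DSP, the link to keratin, ranged from 308 CPM over a median of 399 to 472 CPM in A431 and from 679 over 820.5 to 1067.5 CPM in HaCaT. DSC2 ranged from 107 over 132 to 151 CPM in A431 and from 205 over 294 to 356 CPM in HaCaT. For both genes the 2 lines did not overlap, and the log2 fold changes were 1.07 (SE 0.09, FDR 1.81e-07) and 1.12 (SE 0.07, FDR 2.01e-08). DSG3, the cadherin known as the pemphigus vulgaris antigen, ranged from 143 over 193 to 337 CPM in A431 and from 306 over 466 to 1159.9 CPM in HaCaT. The lines overlapped because the HaCaT siCTRL library, at 306 CPM, lay below the highest A431 values, and the log2 fold change was 1.45 (SE 0.14, FDR 7.89e-07).

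The other plaque and cadherin genes differed less between the lines. PKP1, the plakophilin of stratified epithelia, was 0.70 higher in HaCaT on the log2 scale (SE 0.12, FDR 0.000156), DSC3 0.50 (SE 0.09, FDR 0.000223), PERP 0.44 (SE 0.10, FDR 0.00138) and JUP 0.41 (SE 0.11, FDR 0.00564). PKP2 was higher by 0.20 (SE 0.07, FDR 0.0253), a call that was lost without the filter on low counts (0.18). DSG2 (0.26, SE 0.13, FDR 0.0787) and PKP3 (0.30, SE 0.14, FDR 0.0687) were not called, but passed in 4 and 7 of the alternatives, DESeq2 among them.

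The lines were also compared within the 2 replicated treatments, and whether these differences differ from each other was not tested here. In the siYAP libraries, 3 against 3, 7 of 10 genes were called, all higher in HaCaT, against 58.6% of all genes. In the YAP5SA libraries 5 of 10 were called, all higher in HaCaT, against 50.2% of all genes. The siYAP values were 1.63 for DSG3, 1.5 for DSC2, 1.29 for DSP, 1.07 for PKP1, 0.86 for JUP and 0.79 for DSC3, all called, and 0.24 for DSG2 and 0.19 for PKP3, not called. The YAP5SA values were 1.05 for DSP, 0.82 for DSG3, 0.68 for DSC2 and 0.57 for PKP3, called, and 0.26 for JUP, 0.25 for PKP1, 0.19 for DSC3 and -0.36 for DSG2, not called. With the replicate block DSG2 was called lower in HaCaT in the YAP5SA libraries (-0.39). PERP was 1.15 higher in HaCaT with siYAP (SE 0.14, FDR 8.23e-06) and 0.26 lower with YAP5SA (SE 0.14, FDR 0.124). PKP2 was at 0.03 (SE 0.10, FDR 0.837) with siYAP and 0.54 (SE 0.10, FDR 0.000658) with YAP5SA. Without HaCaT YAP5SA replicate 2, 8 of the 10 genes were called in the YAP5SA libraries, and PERP was then called lower in HaCaT (-0.40).

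**Figure D2:**
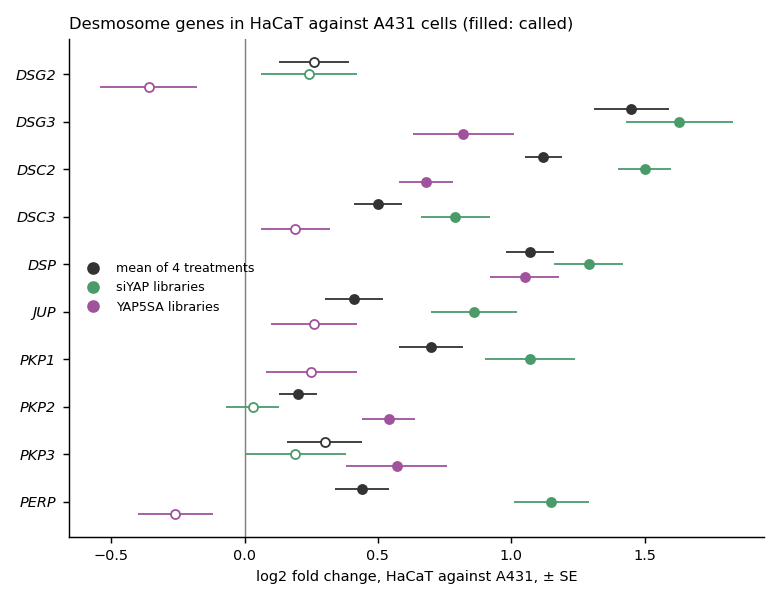
Log2 fold change of HaCaT against A431 (horizontal axis) for each desmosome gene, with bars of 1 SE, as the mean of 4 treatments (black), in the siYAP libraries (green) and in the YAP5SA libraries (purple). Filled points were called and open points were not. DSP, DSG3 and DSC2 are filled in all 3 comparisons.

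None of the 10 desmosome genes was called with YAP1 knockdown. In A431, 0 of 10 were called, against 5.60% of all genes. In HaCaT, 0 of 10 were called, against 5.67% of all genes, and over both lines 0 of 10, against 13.0%. The unadjusted p of the quasi-likelihood test was below 0.05 for 0 of the 10 in A431, 4 in HaCaT and 4 over both lines. Of all genes, 22.2%, 20.4% and 28.5% were below it in the same comparisons. By DESeq2, DSC3 and PERP were called in HaCaT and no gene was called in A431. The SE ran from 0.14 to 0.28 within a line. The calls near the threshold depended on single libraries: without HaCaT YAP5SA replicate 1 or 2, PERP and DSG2 were called in HaCaT.

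In A431 the log2 fold changes with siYAP lay between -0.26 and 0.20, with a median of -0.07 against 0.03 for all genes. The farthest from 0 were those of DSC2, at 136 CPM in the siCTRL library against 127, 107 and 108 CPM in the siYAP libraries, and of PKP2, at 98.5 CPM against 85.2, 78.3 and 82.9 CPM. All 3 siYAP libraries lay below siCTRL for DSC2, PKP2 and DSG2, and above it for PKP1. For DSC2 and DSG2 they also lay below the EV library. The 4 genes with a 3' UTR string had values of -0.17 (DSP), -0.22 (DSG2), -0.13 (DSG3) and -0.26 (DSC2), all with an FDR of 0.319 or more.

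In HaCaT the siYAP libraries lay above siCTRL for 7 of the 10 genes and below it for 2, and the median log2 fold change was 0.27 against 0.03 for all genes. PERP was at 585 CPM in the siCTRL library against 890.1, 1023 and 913 CPM in the siYAP libraries, above both the siCTRL and the EV library (738 CPM), with a log2 fold change of 0.69 (SE 0.20, FDR 0.0668). DSC3 was at 494 CPM against 668, 818 and 725 CPM (0.58, SE 0.18, FDR 0.0879), but the EV library, at 757 CPM, lay among the siYAP values. DSG3 was at 306 CPM against 432, 615 and 433 CPM (0.69, SE 0.28, FDR 0.187), all far below EV.

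DSG2 and PKP2 were the genes with all siYAP libraries below siCTRL in HaCaT, while DSC2, the third form shared with simple epithelia, lay above it in all 3 (306, 336 and 326 CPM against 282 CPM). DSG2 was at 1009 CPM with siCTRL, 937 CPM with EV and 679, 571 and 654 CPM with siYAP, so all 3 siYAP libraries lay below both controls. Its log2 fold change was -0.67 (SE 0.24, FDR 0.133) against siCTRL, and it was called when the siCTRL and EV libraries served as 2 controls (-0.62, FDR 0.0475). PKP2 was at 101 CPM with siCTRL, 97.1 CPM with EV and 80.4, 92.3 and 78.4 CPM with siYAP (-0.28, SE 0.15, FDR 0.319). Of the 4 genes with a 3' UTR string, DSG2 was the one with a negative value in HaCaT, while DSP (0.35), DSG3 (0.69) and DSC2 (0.19) were positive.

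With constitutively active YAP1, 5 of the 10 desmosome genes were called lower than in the EV library in HaCaT. The cadherins DSG3, DSG2, DSC2 and DSC3 and the tetraspan protein PERP were called lower in YAP5SA than in EV libraries and no desmosome gene was called higher, against 13.6% of all genes called and 6.64% called lower. The median log2 fold change was -0.61 for the 10 genes and 0.01 for all genes. With the replicate block 2 of the 5 were called (DSC2 and DSG3). That block counted the EV library as replicate 1, a number that its label does not give. In A431, 0 of 10 were called, as were 0.0% of all genes, YAP1 itself included (4.36, SE 0.65, FDR 0.197), so that the test could not tell a response there. There were 828 genes (5.64% of all genes) at an unadjusted p below 0.05 and none of them a desmosome gene. DESeq2 called 3 of all genes there and no desmosome gene, and 87 genes were called without A431 YAP5SA replicate 1, again no desmosome gene.

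DSG3 was at 1159.9 CPM in the HaCaT EV library and at 566, 456 and 476 CPM with YAP5SA, a log2 fold change of -1.22 (SE 0.25, FDR 0.0112). The siCTRL library, at 306 CPM, lay below all 3 YAP5SA values, and with siCTRL and EV as 2 controls the change was -0.55 and was not called (FDR 0.357). The call of DSG3 therefore rests on the single EV library.

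DSC2 was at 356 CPM with EV, 282 CPM with siCTRL and 244, 213 and 205 CPM with YAP5SA, a log2 fold change of -0.69 (SE 0.14, FDR 0.0102). DSG2 was at 937 CPM with EV, 1009 CPM with siCTRL and 676, 348 and 544 CPM with YAP5SA (-0.84, SE 0.24, FDR 0.0357). For both genes all 3 YAP5SA libraries lay below both controls, and both were called with the 2 controls together (-0.53, FDR 0.0272, and -0.90, FDR 0.0149). The call of DSC2 held in every alternative except the one that asks for a log2 fold change of at least 1. That of DSG2 was near the threshold. It was lost under the same rule and in 9 other alternatives, with values of -0.87 to -0.71: HaCaT fitted alone, the replicate block, and the fits without A431 siYAP replicate 1, 2 or 3, A431 YAP5SA replicate 3, HaCaT siYAP replicate 1 or 3, or HaCaT YAP5SA replicate 3.

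DSC3 was at 757 CPM with EV and 511, 443 and 449 CPM with YAP5SA (-0.69, SE 0.17, FDR 0.0212), with siCTRL at 494 CPM among the YAP5SA values. PERP was at 738 CPM with EV, 585 CPM with siCTRL and 389.5, 527 and 416 CPM with YAP5SA (-0.73, SE 0.19, FDR 0.0238), below both controls in all 3 libraries. With the 2 controls together neither was called, at -0.42 (FDR 0.146) for DSC3 and -0.57 (FDR 0.0564) for PERP. Without HaCaT YAP5SA replicate 3 both calls were lost as well, at -0.67 and -0.69, and 2 genes, DSC2 and DSG3, were called. Both were also lost with the replicate block (-0.60 and -0.70), and PERP with HaCaT fitted alone (-0.72).

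None of the plaque genes was called against EV, although PKP1 was without HaCaT YAP5SA replicate 1 (-0.74) and PKP2 without replicate 2 (0.50). PKP2 was at 97.1 CPM with EV, 101 CPM with siCTRL and 132, 109.9 and 143 CPM with YAP5SA, and PKP3 at 78.7, 47.3 and 101, 95.2 and 142 CPM. Both were above both controls in all 3 YAP5SA libraries, with log2 fold changes of 0.40 (SE 0.15, FDR 0.0887) and 0.52 (SE 0.28, FDR 0.217). JUP (0.42, SE 0.23, FDR 0.228), DSP (-0.36, SE 0.17, FDR 0.169) and PKP1 (-0.54, SE 0.23, FDR 0.128) were not called. PKP1 was at 372, 202 and 312 CPM with YAP5SA and 428 CPM with EV.

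Markers of other epithelial states moved in the same HaCaT libraries. Of the 4 simple epithelium markers, 3 were called higher with YAP5SA (KRT18, KRT8 and KRT7), and the list summed to 2891 to 3569 CPM against 1608 CPM with EV and 1599 CPM with siCTRL. The remaining marker, KRT19, was not called. It lay at 426, 182 and 351 CPM with YAP5SA, below EV (473 CPM) and siCTRL (525 CPM). Of the 8 keratinocyte markers 3 were called higher (ITGB4, LAMB3 and KRT17) and none lower, and of the 3 endothelium markers CDH5 was called higher, at no more than 0.995 CPM. LAMB3 and KRT17 lay above both controls in all 3 YAP5SA libraries. ITGB4, at 182.8, 149.8 and 222.1 CPM with YAP5SA, lay above EV (79.2 CPM) but below siCTRL (304.9 CPM). Of the 8 suprabasal markers, KRT10 was called lower and FLG higher, and the list summed to 428 to 482 CPM against 549.9 CPM with EV and 579 CPM with siCTRL. With siYAP the suprabasal list summed to 826 to 896 CPM, with FLG called higher, and the simple epithelium list to 1222.5 to 1241 CPM. Their part in the changes of the desmosome genes was not tested.

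In A431 the log2 fold changes with YAP5SA lay between -0.24 and 0.51. The value farthest from 0 was that of DSG3, at 199.6 CPM with EV, 175 CPM with siCTRL and 203, 337 and 311 CPM with YAP5SA (0.51, SE 0.28, FDR 0.803). All 3 YAP5SA libraries lay above both A431 controls for DSG3, whereas in HaCaT they lay between the controls. The other genes were DSP (-0.24), PKP1 (-0.22), DSC2 (-0.14), JUP (-0.09), PERP (-0.08), DSC3 and PKP3 (-0.05 each), DSG2 (0.02) and PKP2 (0.07). Over both lines 0 of 10 genes were called, against 2.04% of all genes, and DSC2 came nearest (-0.42, SE 0.10, FDR 0.0512).

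The difference in response between the lines was tested directly. The YAP1 level of the YAP5SA libraries was higher in HaCaT than in A431, so line and YAP1 level change together in this test. For YAP5SA, 0 of 10 desmosome genes were called, against 0.0886% of all genes, and DSG3 came nearest, with a change 1.72 lower in HaCaT than in A431 on the log2 scale (-1.72, SE 0.39, FDR 0.0612). It was called by DESeq2 (-1.71) and in 5 other alternatives, among them those without HaCaT YAP5SA replicate 1 (-1.82), replicate 2 (-1.66) or A431 YAP5SA replicate 1 (-1.91). With siCTRL and EV as 2 controls in each line it was -1.15 (FDR 0.396). For siYAP, 0 of 10 were called, against 0.170% of all genes, with values from -0.45 for DSG2 to 0.82 for DSG3 and an FDR of 0.353 or more. The fall of the cadherins with YAP5SA was thus called in HaCaT and not in A431, but it was not shown to differ between them.

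**Figure D3:**
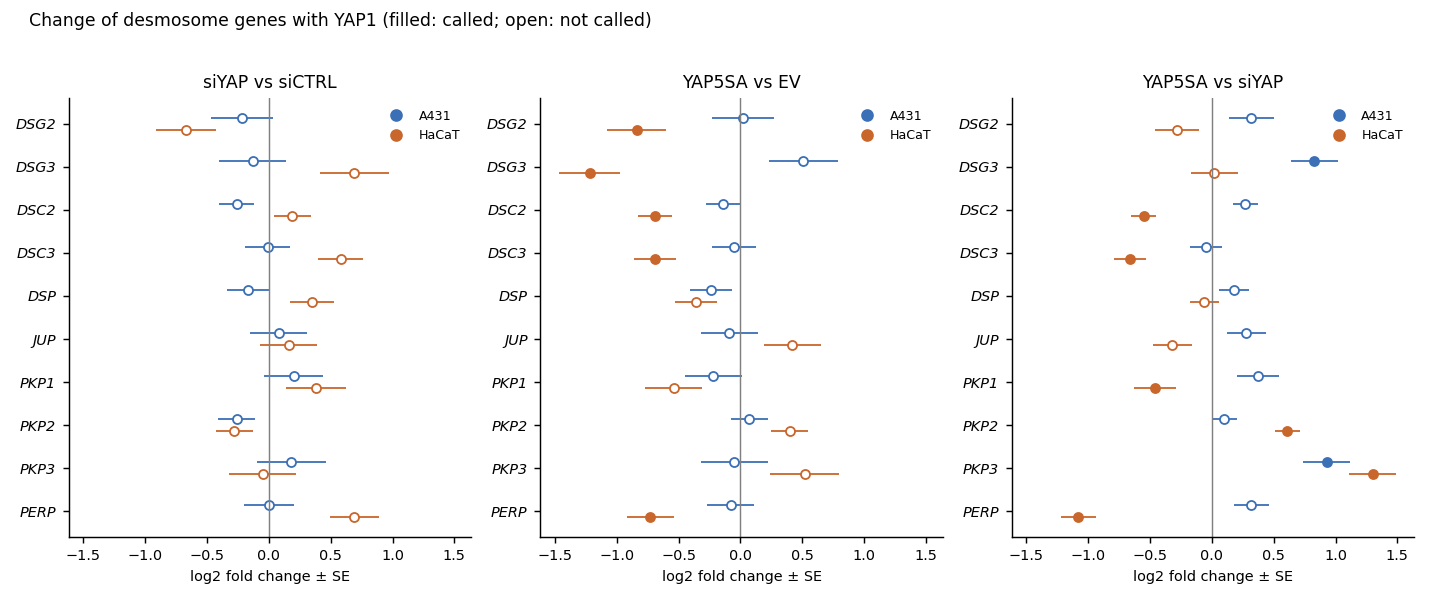
Log2 fold change (horizontal axis, bars of 1 SE) of each desmosome gene in A431 (blue) and HaCaT (orange) for siYAP against siCTRL, YAP5SA against EV and YAP5SA against siYAP. Filled points were called and open points were not. No point is filled in the left panel, and 5 orange points are filled to the left of 0 in the middle panel.

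The 2 controls of a line were set against each other, 1 library against 1, with the spread taken from the treated triplicates. In A431, 0 of 10 desmosome genes were called, against 1.17% of all genes, with PKP3 at 35.3 CPM in siCTRL and 78.8 CPM in EV (1.16, SE 0.34, FDR 0.113). In HaCaT, 3 of 10 were called, all higher in EV, against 39.5% of all genes. DSG3 was 1.92 higher on the log2 scale (SE 0.34, FDR 0.000759), DSP 0.65 (SE 0.22, FDR 0.0267), at 679 and 1067.5 CPM, and DSC3 0.62 (SE 0.22, FDR 0.0367), a call lost in 3 alternatives (0.54 to 0.62) and, as was that of DSP, where a log2 change of 1 was asked for. The other genes lay between -0.58 for JUP and 0.73 for PKP3 in HaCaT, and between -0.23 for PKP2 and 0.79 for PKP1 in A431. For DSG3 this difference between controls was larger than the change with siYAP or YAP5SA.

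YAP5SA and siYAP libraries of the same line were also set side by side, 3 against 3, a contrast in which the kind of transfection changes together with YAP. In A431, 2 of 10 genes were called, against 34.6% of all genes. DSG3 was at 203, 337 and 311 CPM with YAP5SA and 186, 143 and 149 CPM with siYAP (0.83, SE 0.19, FDR 0.00484), and PKP3 at 64.1, 86.5 and 77.6 CPM and 28.9, 42.7 and 49.0 CPM (0.93, SE 0.19, FDR 0.00254). The groups did not overlap for either gene. With A431 fitted on its own 6 of the 10 were called, PKP1, DSG2, DSC2 and PERP in addition, against 5577 of all 14673 genes.

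In HaCaT 6 of 10 genes were called, against 60.0% of all genes. DSC2, DSC3, PKP1 and PERP were lower with YAP5SA than with siYAP, 4 of 10 against 28.5% of all genes, and PKP2 and PKP3 were higher, 2 of 10 against 31.5%. PERP was lower by 1.08 on the log2 scale (-1.08, SE 0.14, FDR 1.48e-05), and its 3 YAP5SA values, up to 527 CPM, lay below the lowest siYAP value of 890.1 CPM. PKP3 was at 101, 95.2 and 142 CPM with YAP5SA and at 45.9, 42.8 and 48.8 CPM with siYAP (1.30, SE 0.19, FDR 5.56e-05), without overlap, and PKP2 was higher by 0.61 (SE 0.10, FDR 0.000167). DSC3 was lower (-0.66, SE 0.13, FDR 0.000457), as was DSC2 (-0.55, SE 0.10, FDR 0.000359). PKP1 was lower by less (-0.46, SE 0.17, FDR 0.027), and this call was lost without HaCaT YAP5SA replicate 2 (-0.24), without HaCaT siYAP replicate 2 or 3 (-0.43 each), with HaCaT fitted alone (-0.41) and without the filter on low counts (-0.39). DSG3 (0.02, SE 0.19), DSG2 (-0.28, SE 0.18), DSP (-0.06, SE 0.12) and JUP (-0.32, SE 0.16) were not called. These comparisons share the treated libraries with those against the controls.

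PKP3 was the 1 gene called in the same direction in both lines in this comparison. The controls of the 2 arms differed in level too: PKP3 was at 78.8 CPM in the A431 EV library and 78.7 CPM in the HaCaT EV library, and at 35.3 and 47.3 CPM in the siCTRL libraries.

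The balance of related genes within each family was read from ratios of counts within a library, which do not depend on library scaling. DSG3 over DSG2 had a mean log2 ratio of -0.33 ± 0.68 (SD, n = 8) in HaCaT and -1.59 ± 0.37 (SD, n = 8) in A431, a difference of 1.26 (exact two-sided permutation test of the line labels within treatments, p = 0.00125, the smallest that its 1600 arrangements allow, 0.00313 after Benjamini-Hochberg adjustment over 5 ratios). DSC3 over DSC2 had a mean log2 ratio of 1.09 ± 0.13 in HaCaT and 1.70 ± 0.18 in A431, a difference of -0.61 with the same exact permutation p. HaCaT cells thus held more DSG3 for each DSG2 and less DSC3 for each DSC2 than A431 cells. The DSG3 ratio of the HaCaT siCTRL library, -1.72, lay within the A431 range of -1.89 to -0.92, and all other HaCaT values lay above it.

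No difference between the lines was called for the plakophilin ratios, with adjusted exact permutation p of 0.0958 for PKP1 over PKP2, 0.217 for PKP1 over PKP3 and 0.441 for PKP3 over PKP2. Within HaCaT they were compared between treatments. PKP1 over PKP3 had a mean log2 ratio of 3.14 ± 0.13 (SD, n = 3) with siYAP and 1.37 ± 0.45 with YAP5SA, a difference of -1.78, and the 3 values of one group lay apart from those of the other. With 3 against 3 libraries the exact permutation test cannot go below p = 0.1, which it reached here (0.167 after adjustment over 5 ratios). Per length, PKP1 made up 67.3 ± 0.645% (SD, n = 3) of the 3 plakophilins in HaCaT siYAP libraries, 58.3% with siCTRL, 60.7% with EV and 43.1 ± 6.52% with YAP5SA, while PKP3 made up 14.8 ± 1.24%, 17.2%, 21.6% and 32.4 ± 5.07%. In A431 the share of PKP1 stayed between 46.0 and 55.3% in all 8 libraries.

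**Figure D4:**
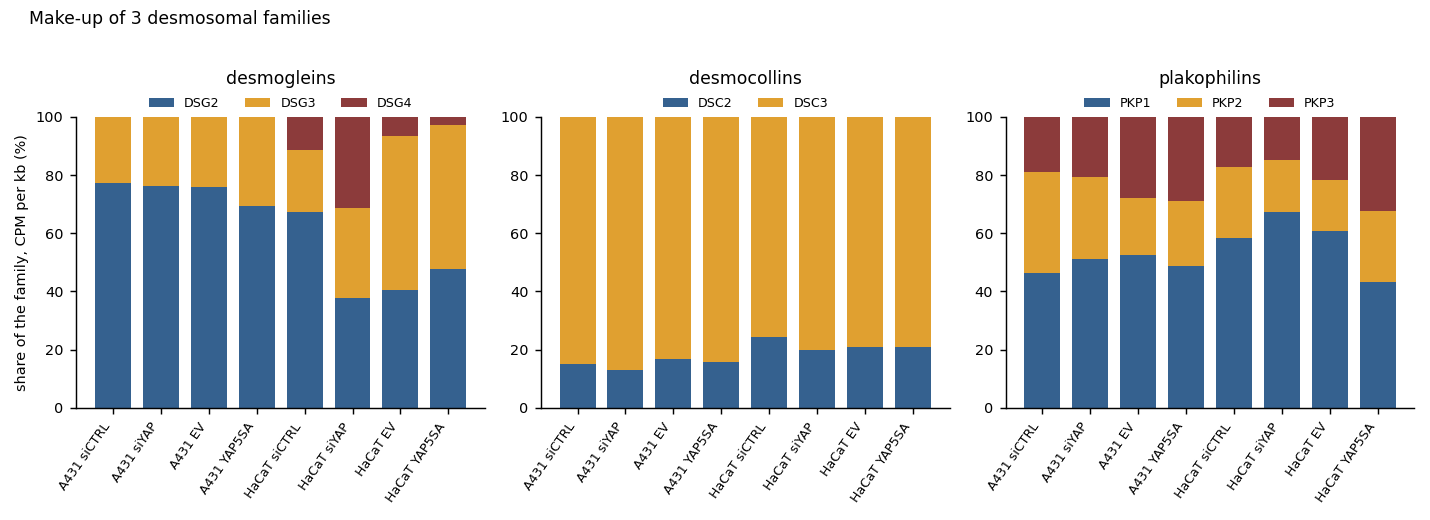
Share of each gene (vertical axis, percent of the family's summed CPM per kb) in the desmogleins, the desmocollins and the plakophilins, by group (horizontal axis). Bars are single libraries for siCTRL and EV and means of 3 libraries for siYAP and YAP5SA. DSG4 takes part of the desmoglein bar in HaCaT and none in A431, and the desmocollin shares vary least.

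Among the other desmosomal genes on a list drawn up beside the 10, DSG4 was the 1 that responded in HaCaT, in both directions. DSG4 is the desmoglein known for the hair follicle and the upper epidermis, and its gene lies between those of DSG1 and DSG3 in the cadherin cluster on chromosome 18, which runs DSC3, DSC2, DSC1, DSG1, DSG4, DSG3, DSG2. In HaCaT DSG4 was at 129.7 CPM with siCTRL, 413, 394 and 415 CPM with siYAP, 119 CPM with EV and 24.9, 18.1 and 21.7 CPM with YAP5SA. The groups did not overlap, and the 2 controls lay close together. The log2 fold change was 1.65 with siYAP (SE 0.19, FDR 0.00171) and -2.46 with YAP5SA against EV (SE 0.16, FDR 0.000333), and over all alternatives it lay between 1.63 and 1.77 and between -2.58 and -2.35. In all 8 A431 libraries DSG4 had 0 counts, so that its level in HaCaT was at least 166-fold higher with YAP5SA and at least 2717-fold higher with siYAP, set against a floor of 3 counts in the A431 library of that treatment with the highest floor.

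Per length, DSG4 was a sizeable part of the desmogleins in HaCaT. Of the summed CPM per kb of DSG2, DSG3 and DSG4 it took 31.3 ± 1.66% (SD, n = 3) with siYAP, 11.2% with siCTRL, 6.62% with EV and 2.60 ± 0.139% with YAP5SA. The neighbouring DSG3 and DSG2 had log2 fold changes of 0.69 and -0.67 with siYAP, neither of them called, and with YAP5SA DSG4 fell by 2.46 where DSG3 fell by 1.22 and DSG2 by 0.84. The antisense gene DSG1-AS1, which runs across DSG4, had at most 4 counts in any library and shares 0 exon bases with it in GENCODE. DSG2-AS1 overlaps 171 exon bases of DSG2 and had at most 29 counts in any library, against at least 10588 of DSG2. Whether the libraries keep strand is not stated in the sources used here.

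**Figure D5:**
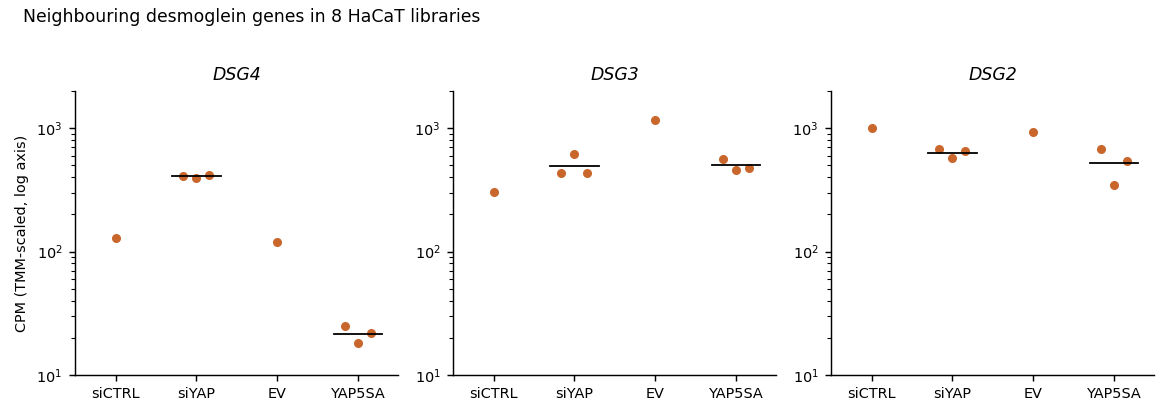
Levels of DSG4, DSG3 and DSG2, in their order on chromosome 18, in the 8 HaCaT libraries (vertical axis, TMM-scaled CPM on a log axis; horizontal axis, treatment). Each point is 1 library and each black line the mean of 3. DSG4 runs from 18.1 to 415 CPM, with the siYAP libraries above and the YAP5SA libraries below both controls.

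The upper-layer cadherins DSG1 and DSC1 were near 0, with at most 1.16 and 1.02 CPM in any library, and did not pass the filter on low counts. Corneodesmosin (CDSN), a component of corneodesmosomes, was at 0.138 to 1.80 CPM, below the level needed for a call. PKP4, an armadillo relative of the plakophilins, was at 84.5 to 136 CPM and was called lower with siYAP over both lines (-0.40, SE 0.12, FDR 0.0409).

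The 10 core genes of the adherens junction, the neighbouring junction anchored to actin, changed in part. With siYAP none was called in A431. In HaCaT E-cadherin (CDH1) was called higher (0.85, SE 0.18, FDR 0.0156), at 364 CPM in the siCTRL library against 632, 637 and 691 CPM, and P-cadherin (CDH3) lower (-0.57, SE 0.13, FDR 0.0201), at 331 CPM against 208, 250.4 and 211 CPM. Over both lines 1 was called higher and 3 lower, CTNND1 (-0.50, SE 0.11, FDR 0.0098) with the smallest FDR. Its siYAP libraries lay below both controls in A431. In HaCaT they were at 786.8, 777.0 and 850.2 CPM, below siCTRL (1106.6 CPM) but above EV (612.9 CPM). Over the alternatives the value of CTNND1 over both lines ran from -0.53 to -0.29. With YAP5SA in HaCaT, 2 were called higher, PVRL2 (1.33, SE 0.16, FDR 0.00102) and VCL (0.44, SE 0.12, FDR 0.0257), and none lower. VCL was at 345 to 364 CPM with YAP5SA, 263 CPM with EV and 372 CPM with siCTRL, and with the 2 controls together it was not called (0.17, FDR 0.472).

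Of the 7 plakins and plaque-associated genes (PPL, EVPL, PLEC, MACF1, KAZN, PNN and ERBB2IP), 0 were called with siYAP or YAP5SA against the controls in either line or over both. In the 3 against 3 comparison in HaCaT 2 were higher and 2 lower with YAP5SA, against 60.0% of all genes called. In A431 1 was lower, against 34.6% of all genes called.

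Of the 11 genes of desmosome assembly, shedding and turnover, the sheddase ADAM17 was called lower with siYAP in A431 (-0.67, SE 0.15, FDR 0.0195) and in HaCaT (-0.66, SE 0.15, FDR 0.0191). In HaCaT 3 were called higher with siYAP: the serine protease inhibitor SPINK5, the protease KLK7, which cleaves corneodesmosomes, and KLK5, which activates it. SPINK5 was at 8.19 CPM with siCTRL and 51.4 to 56.1 CPM with siYAP (2.73, SE 0.42, FDR 0.00239), and KLK7 at 11.7 CPM and 21.7 to 23.9 CPM (0.95, SE 0.20, FDR 0.0138). The HaCaT EV library held 97.4 CPM of SPINK5, more than any siYAP library. For KLK5 the EV library, at 113 CPM, lay among the siYAP values of 103 to 119 CPM, with siCTRL at 59.2 CPM. Over the alternatives the log2 fold change of KLK5 ran from 0.35 to 0.97. With YAP5SA SPINK5 was called lower (-1.86, SE 0.31, FDR 0.00535) and the flotillin FLOT2, a membrane raft protein, higher (1.35, SE 0.16, FDR 0.00094). Both calls were lost with the 2 controls together, at -0.99 (FDR 0.338) and 0.46 (FDR 0.296), since siCTRL, at 8.19 CPM of SPINK5 and 44.2 CPM of FLOT2, lay beyond all 3 YAP5SA libraries. SPINK5 with siYAP was likewise not called with the 2 controls (0.04, FDR 0.976).

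Of the 8 tested transcription factors known for junction genes, GRHL2, which activates CDH1, was called lower with siYAP in A431 (-0.49, SE 0.12, FDR 0.0297) and HaCaT (-0.48, SE 0.12, FDR 0.0289), and SNAI2, a repressor of CDH1, was lower in HaCaT (-0.86, SE 0.19, FDR 0.0166). With YAP5SA in HaCaT GRHL1 (-0.75, SE 0.16, FDR 0.0123), which is known to bind the DSG1 promoter, and KLF5 (-0.72, SE 0.20, FDR 0.0318) were lower, and none was higher. ZEB1 and ZEB2 were at most at 0.287 and 0.718 CPM and were not tested.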

How the data were processed

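RNA-seq was performed in 16 libraries of the A431 and HaCaT cell lines, in 8 groups read from the sample labels. The authors trimmed paired reads and assigned them to gene models of RefSeq by RSEM, which calls bowtie2 (the submitters' processing notes name RSEM 1.2.11, hg19 and edgeR), and deposited the estimated counts per gene, which are expected counts that need not be whole (17.7% of the values were not). They were rounded here. The table had 26229 rows, of which 14673 had a mean above 10 counts. Library totals of 18115624 to 46791673 read pairs set the counting precision. The deposited values are estimates and do not show how many reads were shared by similar genes.

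A single model of the 8 groups was fitted with edgeR 4.0.16 (R 4.3.3; TMM scaling, prior count of 0.125, quasi-likelihood F test, 8 residual degrees of freedom), with Benjamini-Hochberg adjustment over all tested genes of a comparison. Genes were called at an FDR below 0.05 and mean log2 CPM above 1. The scaling and call rule follow the study's methods, and its filter on low counts per sample was taken as a mean over samples (the rule applied to every library was an alternative). The 5 ratios within families were tested with exact permutation tests in Python 3.11.15. Lengths, 3' UTRs and exon overlaps came from GENCODE 29, and promoter windows from RefSeq (GRCh38.p14). Because the counts were made on hg19, no position of these references was used to read them. The fit was tested on simulated data.

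The genes, the lists and the motifs were chosen with earlier results of these data known. The rule was to name all 10 genes in every comparison, YAP1 and EGFR as checks, and, from each other list, the called genes by direction with up to 3 of the smallest FDR. Where a comparison adds little, some genes are given as a range and the lists are left out. The study's methods call the triplicates biological, while the labels do not tie them to separate cultures, and p-values measure the spread between these samples. Deviations of same-numbered libraries correlated at -0.074 to 0.406 over 18 pairs. All 3 pairs of A431 and HaCaT YAP5SA were above 0.1 (0.406, 0.162 and 0.175), so numbers were taken to pair these groups, although A431 replicate 2 correlated more with HaCaT replicate 3 (0.349). No 2 replicates agreed within sampling noise (chi-square per degree of freedom of 6.51 or more). Alternatives were DESeq2 1.42.0, RLE size factors, other count filters, the likelihood ratio test, a separate fit for each line, an additive model, siCTRL and EV as 2 controls, a replicate block, other call rules, and each of the 12 treated libraries left out. The result of 1 marker list is not reported here.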

Additional observations from a re-analysis of the deposited data

Results flagged for a closer look

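None of the 10 desmosome genes differed between the lines in its response by the test of that difference. Among the genes of the other lists 3 did, by edgeR's quasi-likelihood test with Benjamini-Hochberg adjustment.

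KLK7, the protease that cleaves corneodesmosomes, responded differently to siYAP (log2 difference HaCaT minus A431 of 1.53, SE 0.26, FDR 0.0493). The siCTRL and the 3 siYAP libraries held 39.8 CPM against 24.5, 28.4 and 27.1 CPM in A431, and 11.7 CPM against 23.9, 21.7 and 22.5 CPM in HaCaT, lower in 3 of 3 libraries in one line and higher in 3 of 3 in the other. The difference lay between 1.49 and 1.59 in every alternative, with an adjusted p of 0.000116 to 0.137, and it was no longer called without any one of the 6 siYAP libraries or without A431 YAP5SA replicate 2 or 3, with RLE size factors or with the replicate block.

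PVRL2, a nectin of the adherens junction, and FLOT2, a flotillin, responded differently to YAP5SA (1.56, SE 0.21, FDR 0.0202, and 1.40, SE 0.20, FDR 0.0275). In HaCaT PVRL2 was at 15.9 CPM with EV and 39.8, 37.9 and 42.3 CPM with YAP5SA, and FLOT2 at 16.1 CPM and 37.8, 42.3 and 43.7 CPM. In A431 PVRL2 was at 56.3 CPM with EV and 46.4 to 50.3 CPM with YAP5SA, and FLOT2 at 64.5 CPM and 58.5 to 67.7 CPM. Both rest on the HaCaT EV library, which had the lowest level of either gene among all 16 libraries. With siCTRL and EV as 2 controls the differences were 0.93 (adjusted p = 0.19) and 0.40 (adjusted p = 0.742). Without A431 YAP5SA replicate 2 or 3 neither was called (adjusted p of 0.0511 to 0.0744), and without A431 siYAP replicate 2 or 3 FLOT2 was not (0.0573 and 0.0564).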

How the results depend on the processing

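None of the 10 desmosome genes reversed a call under any alternative, but values that were not called changed sign 57 times. Among them, DSG3 with siYAP ran from -0.57 to 0.78 in HaCaT, and its siYAP difference between the lines from -0.34 to 0.97. With siYAP, where 0 were called, the count in HaCaT became 2 by DESeq2 (DSC3, PERP) and 1 each by the likelihood ratio test (PERP), with 2 controls (DSG2) and with the replicate block (DSC3), and 1 over both lines with 2 controls (DSG2). With treated libraries left out in turn it was 0 to 2 in HaCaT and 0 to 2 over both lines. With YAP5SA in HaCaT the 5 calls became 3 with the line fitted alone (DSC2, DSC3, DSG3), 2 with 2 controls (DSC2, DSG2), 2 with the replicate block (DSC2, DSG3), 1 where the log2 change had to reach 1 in size (DSG3) and 2 to 6 with libraries left out. Over both lines DSC2 alone was called by DESeq2, by the likelihood ratio test and with more than 10 counts in every library (1 each), and 0 to 3 genes with libraries left out. For the difference in the YAP5SA response, DSG3 alone was called in the same 3 alternatives (1 each), and 0 to 1 genes with libraries left out. YAP5SA against siYAP gave 6 calls with A431 fitted alone, 0 in A431 and 2 in HaCaT at a log2 change of 1, and 2 to 5 in A431 with libraries left out. Of the HaCaT and A431 differences 3 remained at a log2 change of 1 (DSC2, DSG3, DSP), and 1 in the YAP5SA libraries (DSP), where libraries left out gave 4 to 8. EV against siCTRL gave 1 call in A431 by DESeq2, the likelihood ratio test (PKP3) and the line fitted alone (PKP1), 0 to 1 with libraries left out, and 1 in HaCaT at a log2 change of 1. The cause of these changes was not tested. The log2 ratio of PKP3 over PKP2 between the lines ran from -0.02 to 0.20 and that of PKP1 over PKP2 from 0.33 to 0.55 with libraries left out, the latter with an adjusted exact permutation p of 0.0333 without HaCaT YAP5SA replicate 2 (0.55) and 0.0479 without replicate 3 (0.52). SPINK5 over both lines reversed with 2 controls, from 2.45 with siYAP to -0.22.

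Beside the counts above, the replicate block called 1215 genes for YAP5SA in HaCaT against 2001 without it, and 33 against 300 over both lines. Besides the 2 YAP5SA groups, no pair of groups had all 3 same-numbered pairs above 0.1, so numbers were not taken to pair them. Single pairs among these were above 0.1. A431 siYAP replicate 3 correlated at 0.273 with HaCaT siYAP replicate 3 and at 0.186 with HaCaT YAP5SA replicate 3. Replicate 2 of HaCaT siYAP and of HaCaT YAP5SA correlated at 0.107. The EV libraries and the HaCaT siCTRL library, whose labels carry no replicate number, entered the block as replicate 1.

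Over all genes, the counts called moved by more than 1.5 times in 9 comparisons. Over the alternatives they ran from 198 (2 controls) to 1397 (DESeq2) for siYAP in A431 (821), from 356 (line fitted alone) to 2941 (2 controls) in HaCaT (832) and from 206 (additive model) to 2933 (2 controls) over both lines (1904). For YAP5SA they ran from 0 to 87 in A431 (0), from 662 (line fitted alone) to 2907 (without HaCaT YAP5SA replicate 1) in HaCaT (2001) and from 3 (additive model) to 1370 (the same replicate left out) over both lines (300). The differences in response ran from 6 to 280 for siYAP (25) and from 1 to 928 for YAP5SA (13), and EV against siCTRL in A431 from 67 to 737 (172). No scaling moved the median of all genes by over 0.1 on the log2 scale. Every desmosome gene had at least 720 counts, and every comparison with a control rests on 1 control library a line.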

Other observations

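Between the single control libraries of HaCaT, several genes of the junction lists differed, and the following were chosen after their values were seen. SNAI2, a repressor of E-cadherin, was at 51.2 CPM with siCTRL and 140.1 CPM with EV, and PNN, a desmosome and splicing protein, at 97.9 and 206 CPM. KLF5 was at 461 and 219.8 CPM and PVRL1, a nectin, at 335 and 120.1 CPM. For SNAI2 the 3 siYAP libraries, at 26.9 to 29.4 CPM, lay below both controls.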
